A study of Mus musculus with 4 samples.

Results

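The interneuron transcription factor genes described here are 7 mouse genes, Dlx1, Dlx2, Dlx5, Dlx6, Lhx6, Sox6 and Nkx2-1, out of 21755 protein-coding genes examined. Binding sites of CTCF, the zinc-finger protein that separates chromatin domains and holds loops together with cohesin, were taken at each gene when the summit of the site lay in the gene body or within 20 kb of it. This gave 16 of the 90278 summits in the list, in 5 loci, because Dlx1 and Dlx2 were treated as 1 locus and Dlx6 and Dlx5 as another. The rule takes genes by name and summits by position (GENCODE M21 on mm10). The list itself holds only peaks that passed a threshold for reproducibility between the replicates, and no further limit on a measured value was set.

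The sites come from CTCF chromatin immunoprecipitation and sequencing (ChIP-seq) of frozen tissue, labelled as a layer of the hippocampus, from adult male B6CASTF1/J mice aged 2 months, the hybrid of C57BL/6J and CAST/EiJ. There was 1 condition, and 4 libraries stood for 2 biological replicates: tissue of 7 samples was pooled per replicate and made into 2 technical libraries. Both pools carry 1 donor entry in the labels, so the spread between them may be technical. The libraries of a replicate were merged before peaks were called, so each replicate gives 1 signal per peak, and read depth is unknown. In such bulk tissue a site held by fewer cells and a site held more weakly in each cell cannot be told apart, and a ChIP-seq peak list gives no expression values against which the tissue label could be checked.

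As background, cortical and hippocampal interneurons arise in the embryonic ganglionic eminences, ventral swellings of the forebrain. Dlx1, Dlx2, Dlx5 and Dlx6 encode homeodomain factors of that territory, and they lie in tail-to-tail pairs whose short intergenic stretch holds forebrain enhancers shared by both genes. Nkx2-1 specifies the medial eminence and switches on Lhx6, a LIM-homeodomain factor that interneurons keep into adulthood, and Sox6 acts after Lhx6 in the maturation of parvalbumin and somatostatin cells. Interneurons are a minority of the cells of the adult hippocampus. The CTCF recognition sequence is not a palindrome, and its orientation is known to matter for which sites form a loop.

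The strongest summit of each locus that had one stood upstream of a member gene, and its sequence carried a match to the 12-base CTCF core motif, with up to 2 mismatches, on the strand of that gene. Each line below gives 41 bases of the C57BL/6J reference (GRCm38.p6, RefSeq), read 5′ to 3′ along the strand of the match, with the 12 matching bases in capitals. The CAST/EiJ allele is not shown. At Dlx2 and Nkx2-1 the match was exact, while at Dlx5 and Sox6 it had 2 mismatches, beyond the limit of 1 mismatch used for the counts below. The look at position and strand was chosen after the values were seen. The genes of a Dlx pair lie tail to tail, so any summit outside the pair is upstream of 1 of them. For the Dlx pairs the upstream position thus follows from the layout. Of protein-coding genes in general, 43.6% had a CTCF summit up to 5 kb upstream, and where the strongest of these had a match with at most 2 mismatches, it was on the strand of the gene in 53.9%.
Dlx2, chr2:71548012-71548052, minus strand: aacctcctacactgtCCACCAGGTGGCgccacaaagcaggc
Dlx5, chr6:6885112-6885152, minus strand: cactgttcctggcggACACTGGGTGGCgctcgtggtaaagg
Nkx2-1, chr12:56541269-56541309, minus strand: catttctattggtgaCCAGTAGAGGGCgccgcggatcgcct
Sox6, chr7:116040383-116040423, minus strand: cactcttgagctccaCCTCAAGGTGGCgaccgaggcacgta

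Most of these genes had no CTCF summit at a promoter, which was also so for most protein-coding genes. Only Sox6, 1 of the 7 members, had a summit within 1 kb of a transcription start site (TSS), where the share of all protein-coding genes was 38.0%. In the gene body or within 20 kb of it, 6 of the 7 members had a summit, against 85.8% of all protein-coding genes, a share near the background. Lhx6 was the exception. The median distance from a member to the summit nearest any of its TSSs was 4384 bp, against 2675 bp over all protein-coding genes.

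Summit density was below that of the median protein-coding gene at all 5 loci. The 16 summits were spread over 833726 bp, or 1.92 summits per 100 kb. Dlx1 and Dlx2 had 5.12 summits per 100 kb, which placed the pair at percentile 43.8 among protein-coding genes measured with the same 20 kb on each side. Nkx2-1 followed with 4.45 summits per 100 kb at percentile 38.1, and Dlx6 and Dlx5 with 3.4 at percentile 30.6. Sox6 had 1.48 at percentile 16.9, and Lhx6 had 0. With each gene measured alone, the median over the 7 members was 4.36 summits per 100 kb, against 6.14 over all protein-coding genes. In that count the 2 genes of a Dlx pair share a summit. With 10 kb on each side the percentile of Dlx1 and Dlx2 was 60.1, and from replicate 2 alone that of Nkx2-1 was 59.8. Gene length enters this measure, since Sox6 spans 567925 bp and the other members at most 23456 bp.

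**Figure D1:**
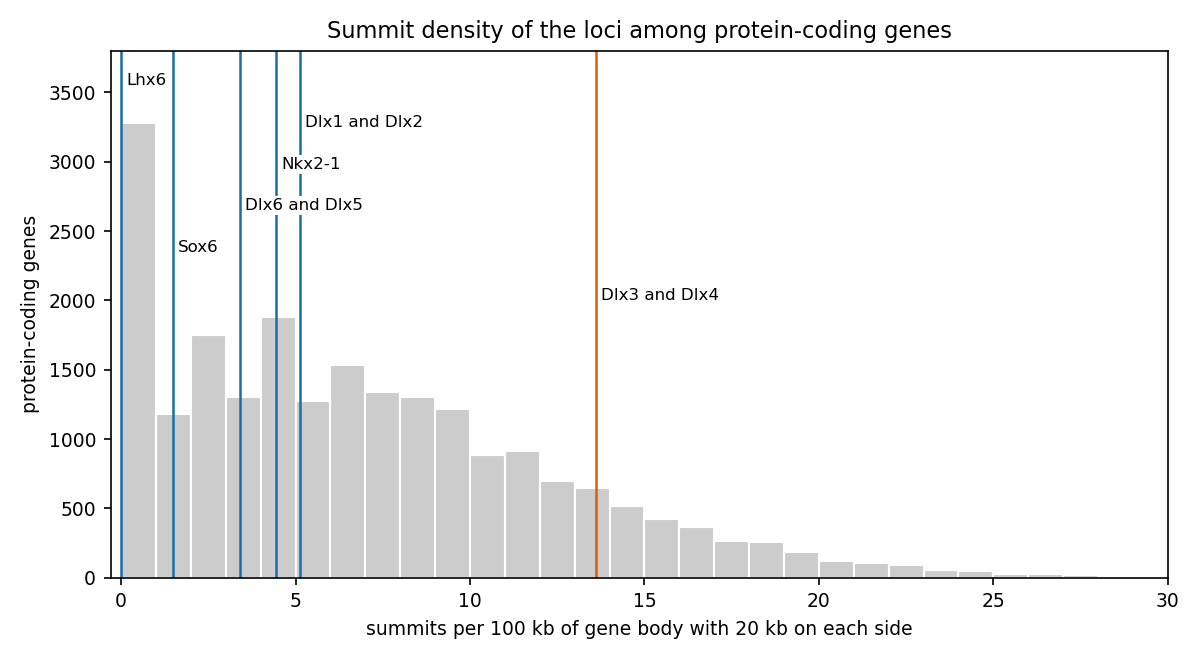
Summits per 100 kb, counted over the gene body plus 20 kb on each side, of the 5 loci (blue lines) and of the Dlx3 and Dlx4 pair (orange line), over the histogram of all protein-coding genes (grey bars, number of genes). The 5 loci lie between 0 and 5.12, and Dlx3 and Dlx4 at 13.6.

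The Dlx1 and Dlx2 pair (chromosome 2, 71528113 to 71546754) had 3 summits within reach and none between the start of Dlx1 and the start of Dlx2. The strongest, at 71548047 (peak 71547871 to 71548255), lay in intergenic sequence 1293 bp upstream of Dlx2. Its signal, a score given by the authors' peak calling whose scale is not stated, was 530, at percentile 78.4 of all peaks. Replicate 1 gave 258 there and replicate 2 gave 275. Their log2 ratio, replicate 1 over replicate 2 and less the median of all peaks, was 0.0, where peaks of like signal had an SD of 0.12. This is the site of the exact match CCACCAGGTGGC shown above. On the Dlx1 side, a summit of 104 stood at 71519641, 8472 bp upstream of the gene in an intron of Metap1d and of the antisense transcript Dlx1as, with 54.9 in replicate 1 and 46.4 in replicate 2.

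Farther upstream of Dlx2, at 9522 bp, the summit at 71556276 had a signal of 98.9, with 34.7 in replicate 1 and 64.8 in replicate 2. The replicates differed more here than at any other of the 16 summits, by a log2 ratio of -0.81 against an SD of 0.35 among peaks of like signal. Its irreproducible discovery rate (IDR) score, which is 1000 for the most reproducible peaks, was 590, and the list ends at 540. It was the summit of the 16 nearest to the threshold. Below the threshold stood candidates at 436 bp downstream of the Dlx1 TSS, with a signal of 16.7, and at 459 bp downstream of the Dlx2 TSS, with 15.5, both with an IDR score of 101.

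The Dlx6 and Dlx5 pair (chromosome 6, 6863334 to 6882085) had 2 summits, both upstream of Dlx5 in intergenic sequence. The nearer one, at 6885129 (peak 6884871 to 6885342), lay 3044 bp from the Dlx5 TSS and had a signal of 738 at percentile 91.6. Replicate 1 gave 374 and replicate 2 gave 366. The second, at 6890249 and 8164 bp from the TSS, had a signal of 207, with 103 in each replicate. Dlx6 itself had no summit closer than 21795 bp to its TSS.

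Both pairs thus had their strongest summit on the side of the minus-strand gene, Dlx2 or Dlx5, and none in the stretch between the genes. That stretch measured 9426 bp between Dlx1 and Dlx2 and 9236 bp between Dlx6 and Dlx5. Candidates below the threshold were present there, 2 in the Dlx1 and Dlx2 stretch and 3 in the Dlx6 and Dlx5 stretch. The 2 of Dlx1 and Dlx2 overlap and carry the same replicate signals, 10.1 in replicate 1 and 13.5 in replicate 2. At Dlx6 and Dlx5, those at 6871875 and 6872205 overlap, and both lie within 1 kb of an annotated TSS of a gene other than the members. The strongest candidate, at 6871875, had a signal of 70.1, with 28.3 in replicate 1 and 44.5 in replicate 2, and an IDR score of 477. Its neighbour at 6870540 had a signal of 37.8 and a score of 494, so both fell a little short of the list.

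**Figure D2:**
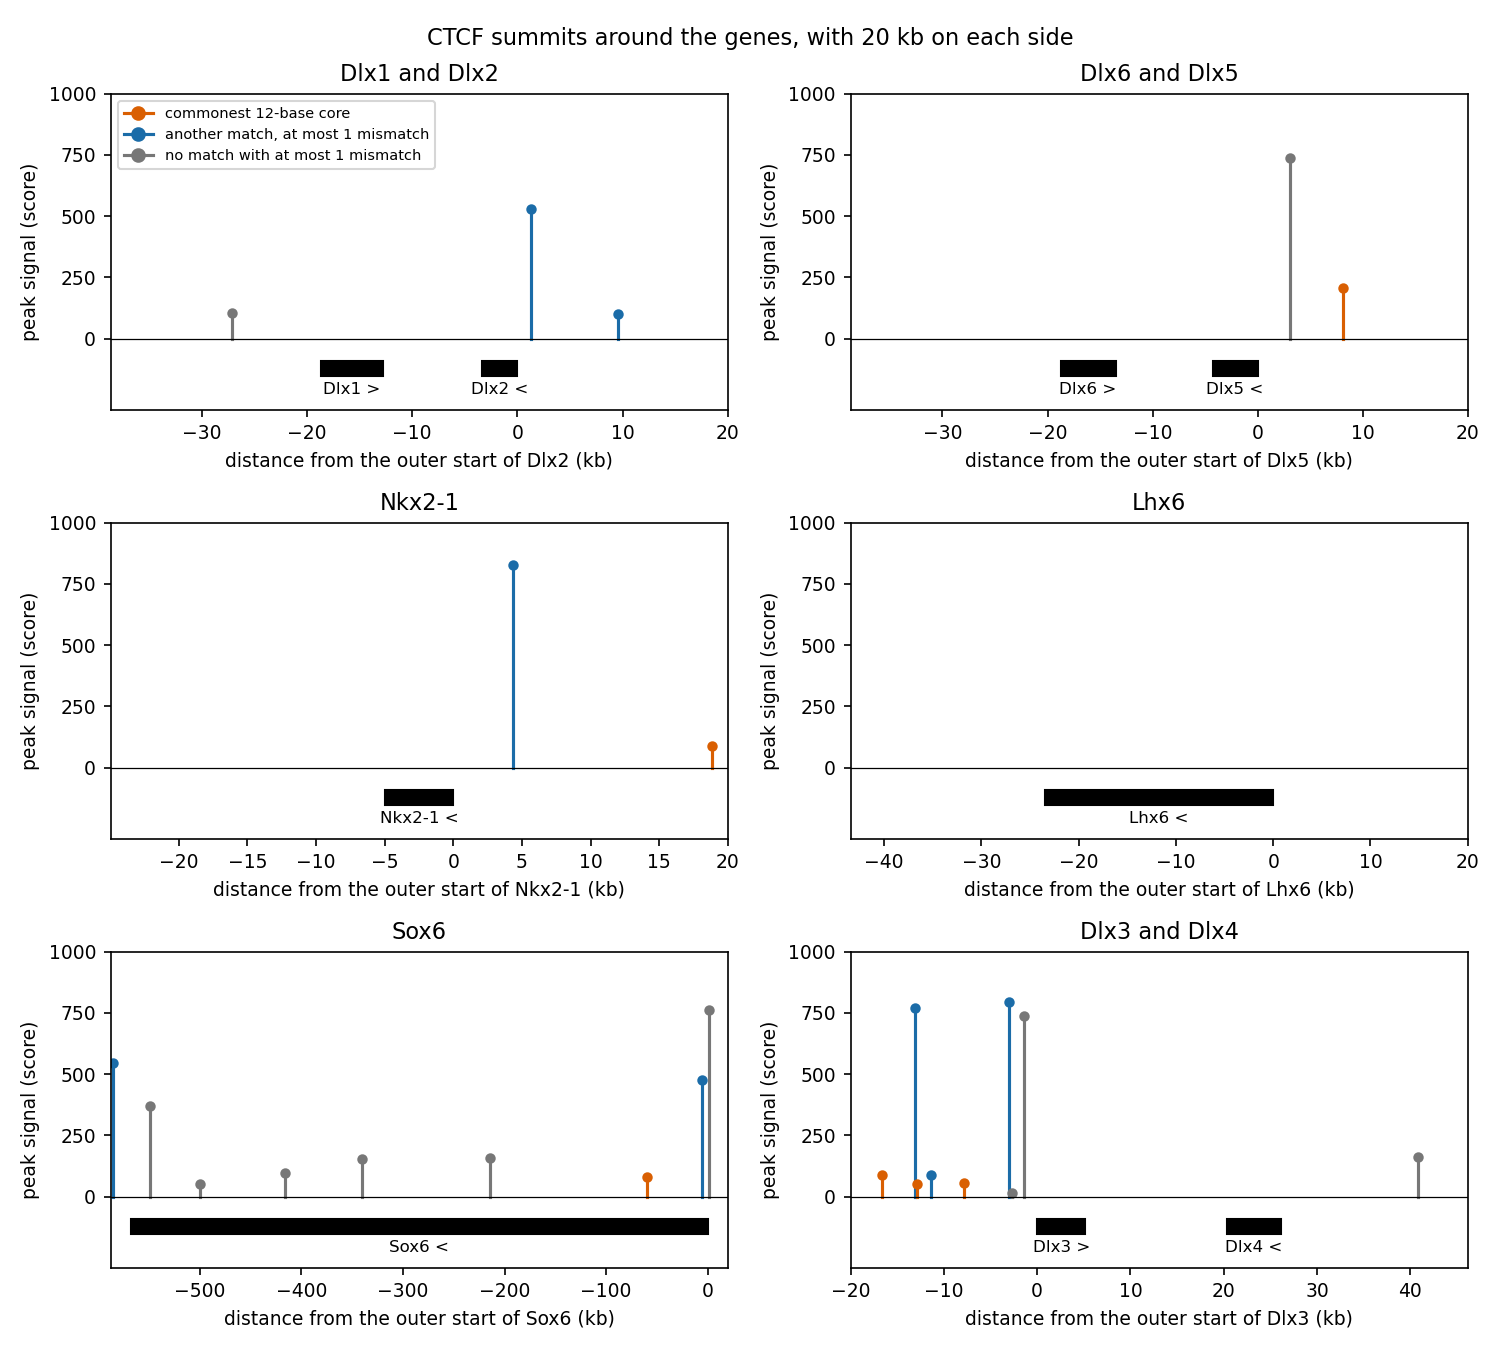
CTCF summits (vertical lines, height is the peak signal as a score) against distance in kb from the outer start of 1 gene of each locus, with gene bodies as black bars and their direction as > or <. The tallest summit of 4 of the 5 loci stands to the right of the gene start, on the upstream side, and the Lhx6 panel is empty.

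Long stretches without a summit enclosed most of the genes. Dlx6 and Dlx5 lay in a summit-free interval of 306437 bp that ran from the promoter of Sem1, a proteasome subunit gene, to the summit upstream of Dlx5. Of the 90258 intervals between neighbouring summits, whose median was 10692 bp, 0.858% were at least as long. Intervals that hold a whole protein-coding gene are long by nature. Taken once for each of the 8454 genes so enclosed, they had a median of 62016 bp, and 20.7% were at least as long. An interval that holds several genes thus counts several times. The interval around Nkx2-1 measured 136238 bp, which 33.3% of gene-holding intervals reached when counted by gene. Lhx6 lay in 97082 bp, reached by 39.2%, and Dlx1 and Dlx2 in only 28406 bp, reached by 72.5%. For none of the 4 was the share of gene-holding intervals as long, counted by gene, below 20.7%. Each held candidates below the threshold, from 2 around Nkx2-1 to 8 in the Dlx6 and Dlx5 interval and 8 around Lhx6.

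Nkx2-1 (chromosome 12, 56531958 to 56536908) had the strongest site of the 16. Its summit at 56541292 (peak 56541035 to 56541556) lay 4384 bp upstream of the TSS, in an exon of the annotated gene Gm26973. The signal of 825 ranked 1942 of 90278, at percentile 97.8, and the highest of all was 966. Replicate 1 gave 395 and replicate 2 gave 433, a log2 ratio of -0.04 against an SD of 0.07. The peak was present in the list of each replicate alone, but the list made from pooled reads had no summit within 100 bp of it. A far weaker summit at 56555738, 18830 bp upstream, had a signal of 89.4, with 47.9 in replicate 1 and 41.6 in replicate 2. Beyond the locus, strong summits stood on both sides, with 758 at 56405054 and 673 at 56587997.

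Lhx6 (chromosome 2, 36081953 to 36105408) had no summit in its body or within 20 kb, as did 14.2% of protein-coding genes and 9.21% of those whose window was of like length. The nearest ones were 36995 bp upstream, in an intron of Mrrf, with a signal of 107, and 36632 bp beyond the other end, in an intron of Ndufa8, with 183. In the upstream one replicate 1 gave 44.4 and replicate 2 gave 62.0. In the downstream one replicate 1 gave 94.6 and replicate 2 gave 87.1. Candidates that did not pass were present at 7465 bp upstream (signal 56.9, IDR score 200, 19.3 in replicate 1 and 38.8 in replicate 2) and downstream of the gene (signal 19.4, IDR score 101). Neither candidate recurred well enough between the replicates to pass.

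Sox6 (chromosome 7, 115470872 to 116038796) had 9 summits, 7 of them in its body. The strongest, at 116040405 (peak 116040151 to 116040649), lay 1661 bp upstream of the first Sox6 TSS and inside an intron of the neighbour 1110004F10Rik. Its signal was 763 at percentile 93.5, with 385 in replicate 1 and 378 in replicate 2. At the other end of the locus, 17382 bp beyond the last exon, the summit at 115453490 had 546, with 276 in replicate 1 and 270 in replicate 2. An intronic summit at 116033107, 2060 bp upstream of an internal TSS, had 477, with 238 in replicate 1 and 241 in replicate 2. The 3 strongest thus sat near or beyond the ends of the gene.

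Inside Sox6 the other 6 summits had signals between 52.0 and 368. The only summit within 1 kb of a member TSS was among them, at 115824800, 90 bp upstream of an internal TSS of Sox6. Its signal was 156, with 86.4 in replicate 1 and 71.7 in replicate 2, and it had no motif match even with 2 mismatches. The summit of 368, at 115489843, lay in a coding exon of Sox6, with 187 in replicate 1 and 184 in replicate 2. The weakest, at 115539093 in an intron, had 25.3 in replicate 1 and 26.8 in replicate 2, an IDR score of 821, and was in the list of neither replicate alone.

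**Figure D3:**
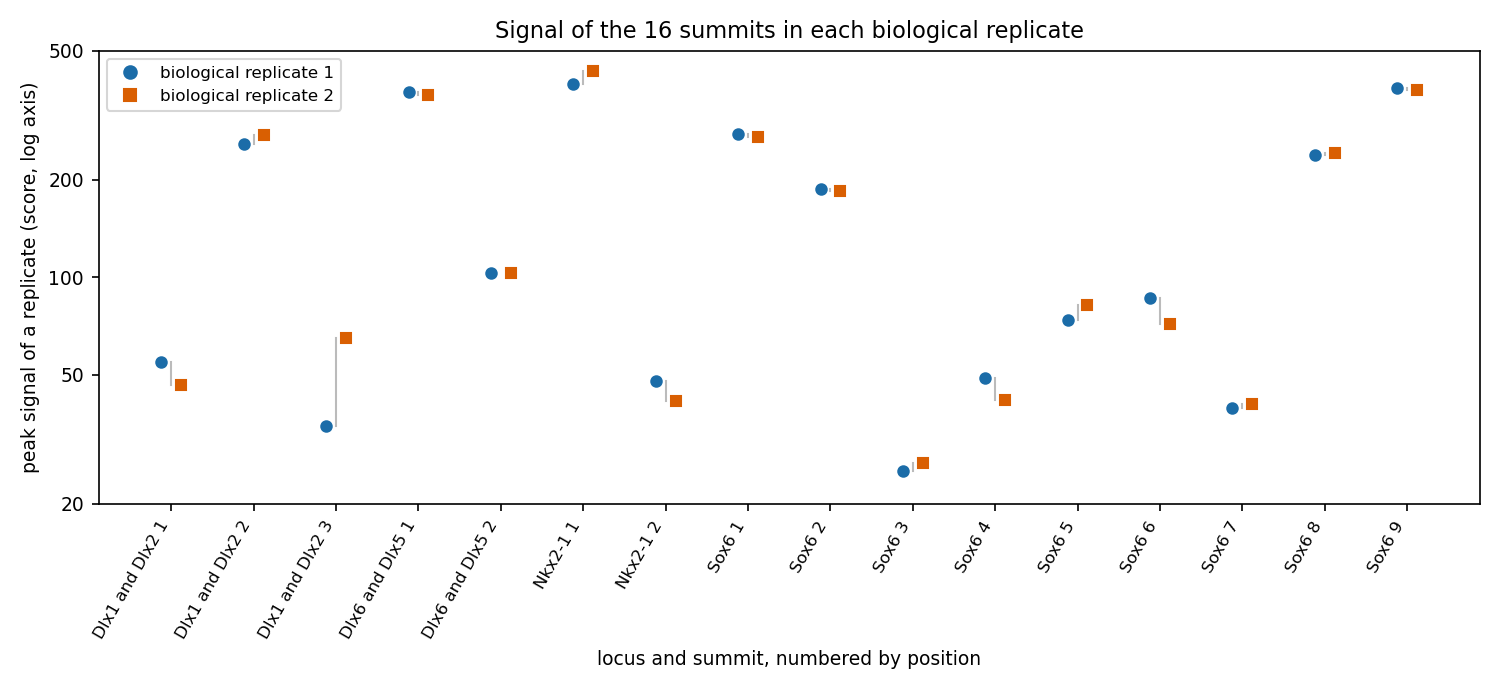
Peak signal (score, log axis) of the 16 summits in biological replicate 1 (circles) and replicate 2 (squares), with summits numbered by position in each locus. The pairs of points lie close together at the strong summits, and the third summit of Dlx1 and Dlx2 shows the widest gap, with 34.7 in replicate 1 and 64.8 in replicate 2.

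Across the 16 summits the replicate ratio was within 1 SD of that of peaks of like signal at 11. All of these peaks had passed the threshold for reproducibility, so agreement between the replicates was in part selected for. The median signal was 182 at the loci, against 165 over all summits, and 3 of the 16 were in the highest decile of signal. Replicate 1 alone gave 15 of them, replicate 2 alone gave 14, and the pooled-read list gave 13. By annotation, 8 of the 16 lay in introns, 5 in intergenic sequence, 1 at a TSS, 1 in a coding exon and 1 in another exon.

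The motif was about as frequent at these summits as elsewhere. With at most 1 mismatch within 50 bp of the summit, on either strand, 8 of the 16 had a match (95% exact interval 24.7 to 75.3%, for counting error only), against 50.3% of all summits. In windows 1 kb away it was 0 of 16, and 1.25% over all summits. An exact match was present at 2 of the 16 and at 9042 of the 90278. With at most 2 mismatches it was 15 of the 16, against 75.7% of all summits, and 2 of the 16 windows 1 kb away, against 8.2%.

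The matches were of different kinds. The commonest 12-base core in the whole list, CCAGAAGAGGGC, which differs from the motif at 1 base, made up 35.1% of all matches and was repeat-masked in 99.8% of cases. In rodents, short interspersed elements of the B2 family are known to carry CTCF sites; the repeat family was not looked up here. Over the whole list, summits with this core had a median signal of 112, and summits with any other matching core had 459. In the loci it stood at 3 summits, 1 each at Dlx5, Nkx2-1 and Sox6, with signals of 207, 89.4 and 81.3. All 3 were repeat-masked, and at Dlx5 and Nkx2-1 it faced against the gene:
Dlx5, far upstream site, chr6:6890231-6890271, plus strand: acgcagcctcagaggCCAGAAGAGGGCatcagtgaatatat
Nkx2-1, far upstream site, chr12:56555729-56555769, plus strand: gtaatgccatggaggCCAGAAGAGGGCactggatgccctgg

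Other matching cores stood at 5 summits, with signals from 98.9 to 825 and a median of 530. Of these 5 only the weak site 9522 bp upstream of Dlx2 was repeat-masked. Apart from the sites at Dlx2 and Nkx2-1 they include the far end of Sox6, where the match with 1 mismatch reads against the gene:
Sox6, downstream end, chr7:115453472-115453512, plus strand: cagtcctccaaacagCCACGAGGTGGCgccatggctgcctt
The 8 summits without a match at 1 mismatch ranged from 52.0 to 763 with a median of 154. They include the strong sites at Dlx5 and Sox6 printed first, so a missing match did not go with a weak signal at every site.

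**Figure D4:**
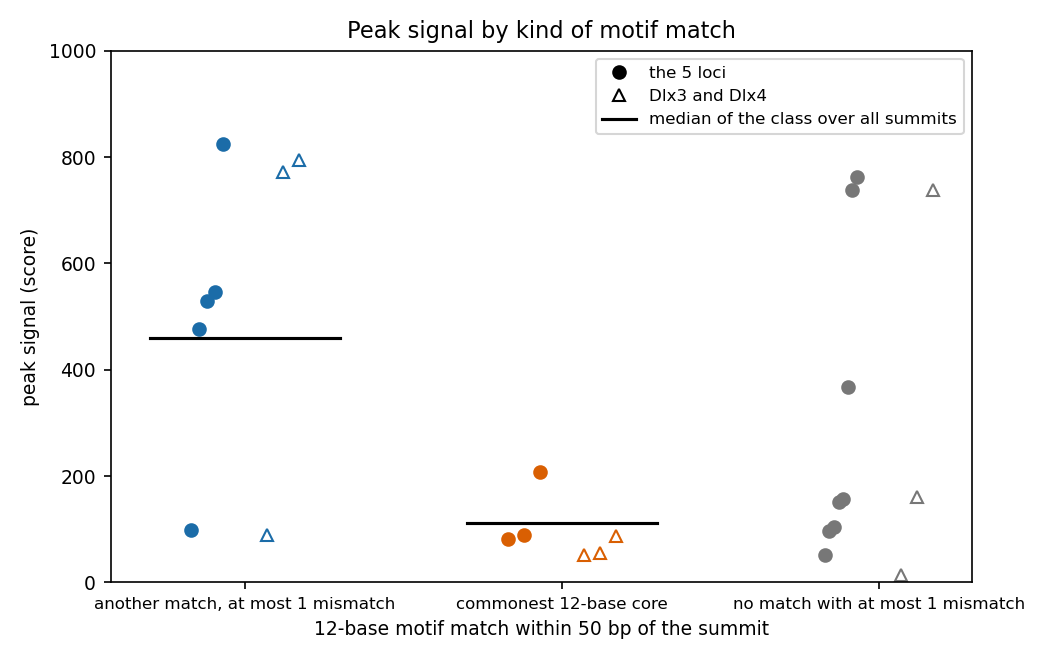
Peak signal (score) of the summits in the 5 loci (filled circles) and at Dlx3 and Dlx4 (open triangles), by the kind of 12-base match within 50 bp. Black bars mark the median over all summits of the class, 459 for another match and 112 for the commonest core; all 6 summits with the commonest core lie at or below 207.

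A summit within 5 kb upstream of a TSS was present at 4 of 7 members (Dlx2, Dlx5, Nkx2-1 and Sox6), against 43.6% of protein-coding genes. The 5 kb limit and the look at strand were chosen after the values were seen. At all 4 the match nearest to the motif was on the strand of the gene, counting up to 2 mismatches, and over all protein-coding genes with such a match this held for 53.9%. With at most 1 mismatch it held at 2 of 2 members, Dlx2 and Nkx2-1, against 54.1% of genes. With 4 sites picked in this way, the counts are a description only.

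The third Dlx pair, Dlx3 and Dlx4 on chromosome 11 (95120119 to 95146263), served as the closest relative by sequence and layout. Dlx2, Dlx3 and Dlx5 form 1 branch of the family and Dlx1, Dlx4 and Dlx6 the other, and Dlx3 and Dlx4 are known from skin, teeth and placenta more than from brain. The pair had 9 summits, or 13.6 per 100 kb, at percentile 87.1, against 5.12 at Dlx1 and Dlx2 and 3.4 at Dlx6 and Dlx5. Not all of the 9 are separate peaks. The weak summits at 95107293 (signal 52.2) and 95117383 (14.4) each share a peak with a strong summit. Reducing overlapping peaks changed no count at the 5 loci, and it was not done for Dlx3 and Dlx4. Of the 9 summits, 8 lay upstream of Dlx3 and 1 upstream of Dlx4, at 14674 bp with a signal of 160. As in the other pairs, none lay between the genes, a stretch of 15150 bp. By the tail-to-tail layout, a summit outside the pair is always upstream of either Dlx3 or Dlx4.

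Dlx3 had 3 summits above 700 upstream. They lay at 1420 bp, with 738 (356 in replicate 1 and 381 in replicate 2), at 2975 bp, with 794 (396 and 398 in the same order), and at 13056 bp, with 771 (381 and 390). The 6 weaker summits of the pair ran from 14.4 to 160. The nearer sites read along Dlx3, exactly at 2975 bp and with 2 mismatches at 1420 bp, and the site at 13056 bp had an exact match on the opposite strand:
Dlx3, nearest site, chr11:95118684-95118724, plus strand: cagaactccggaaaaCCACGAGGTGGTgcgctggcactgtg
Dlx3, second site, chr11:95117121-95117161, plus strand: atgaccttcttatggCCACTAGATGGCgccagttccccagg
In all 3 Dlx pairs a strong summit thus stood 1293 to 3044 bp upstream of the gene of the Dlx2, Dlx3 and Dlx5 branch, and its match lay on the strand of that gene. This was noticed after the values were seen, and 3 pairs allow no test.

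A summit within 1 kb of a TSS was present at 6 of the 10 neighbours of the 5 loci, against 38.0% of all protein-coding genes. Sdhaf3, an assembly factor of succinate dehydrogenase, had a promoter summit of 419, and 1110004F10Rik, 601 bp from Sox6, of 334. Insc, which orients the mitotic spindle, had 144. Metap1d, a mitochondrial aminopeptidase gene 2919 bp from the Dlx1 and Dlx2 pair, had 101, the proteasome gene Sem1 had 99.9, and the integrin gene Itga6 had 90.4. Mbip and Nkx2-9 beside Nkx2-1, and Morn5 and Rbm18 beside Lhx6, had none within 1 kb.

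Other genes of the interneuron programme also differed in promoter summits, which 38.0% of all protein-coding genes had. Of 8 factors of ventral progenitors, 2 had a promoter summit, the glial and motor neuron factor Olig2 (354) and the Notch effector Hes5 (126), and the homeobox gene Gsx1 had none. Of 13 genes of the medial eminence lineage, 4 had one, among them Zeb2 (586), Etv1 (444) and, named after its value was seen, Satb1 (289), and the homeobox gene Lhx8 had none. All 13 had a summit in the body or within 20 kb, against 85.8% of all protein-coding genes. Of 7 genes of the caudal eminence lineage only Npas3 had one (69.1), and Npas1 and Nr2f1 had none.

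Of 4 genes for GABA synthesis and transport only Gad1, which encodes a glutamate decarboxylase, had a promoter summit (649), where 38.0% of all protein-coding genes had one, and Gad2 and the vesicular transporter gene Slc32a1 had none. The median density of these 4 was 9.56 summits per 100 kb, against 4.03 for the medial eminence list, 5.39 for the caudal eminence list and 6.97 for the progenitor list. The median of the 7 members was 4.36. Single genes of the medial eminence list ran from 1.46 at Satb1 to 11.9 at Sox2, and likeness between lists was not tested.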

How the data were processed

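CTCF ChIP-seq peak lists deposited by the authors were used, with mm10 as the build per the labels. Aligner and peak caller were not given in the sources used here, nor was the control. The peak signal is a score of unstated scale from the authors' calling, used to describe and rank peaks within a list. The q-value that the authors deposited for each peak is a −log10 value and was not used. The deposited IDR score is capped at 1000, with 540 the lowest in the list (IDR 0.05) and 830 at 0.01. The main list was the thresholded list between replicates. Replicate signals came from the ranked list between replicates. Which signal belongs to which replicate was checked by identical records: 78.1% of the peaks of input 1 were found in the replicate 1 list and 0% in the other, and 80.0% of those of input 2 were found in the replicate 2 list and 0% in the other. A replicate signal belongs to the replicate peak assigned to a pooled peak, so close summits can share it.

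Coordinates are 1-based. Gene models were those of GENCODE M21 (basic set) on chromosomes 1 to 19 and X, and sequences from the RefSeq GRCm38.p6 genome. All peaks were checked to end within its chromosome lengths. Matches to a 12-base CTCF core motif were sought on either strand, up to 50 bp from the summit. On simulated windows the search found 100% of 1000 planted exact matches and called 0.3% of 1000 windows of random bases. The planted matches check the code only, since an exact match is always within the limit. In genomic windows 1 kb from all summits the search called 1.25%. The replicate ratio is replicate 1 over replicate 2 on the log2 scale, from which the median of all peaks (-0.091) was taken. Peaks of different lists were matched where summits lie within 100 bp.

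The members, the gene lists and their limits were chosen with earlier results of these data known. Named were all members and their summits, nearest neighbours and flanking summits, Dlx3 and Dlx4, and from each list up to 3 genes with the strongest promoter peak and the first 2 by alphabet with none. Some genes that this rule names are not reported here. With 1 condition no test was made. Alternatives were other flanks, lists, thresholds, motif limits and backgrounds, and each replicate alone. The tools were pysam 0.24.0, pandas 2.3.3, numpy 2.4.6, matplotlib 3.10.9 and scipy 1.17.1 under Python 3.11.15.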

Additional observations from a re-analysis of the deposited data

How the results depend on the processing

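Of the main values under the alternatives, 59 stayed within their limits and 27 moved. For the percentiles of density these limits were not equally wide at all loci. At Sox6 a change from 16.9 to 14.6, among genes of the same length, counted as moved. At Dlx6 and Dlx5 a change from 30.6 to 22.2, with 50 kb, counted as within the limit. The tally therefore does not show which percentiles changed most. Summits per locus followed the flank. With 50 kb, Dlx1 and Dlx2 had 7 summits and Lhx6 had 2. With 100 kb, the counts were 19 at Dlx1 and Dlx2, 5 at Dlx6 and Dlx5, 5 at Nkx2-1, 11 at Lhx6 and 19 at Sox6. Nkx2-1 had 1 summit with 10 kb, and 1 in the pooled-read list, which lacks its strongest site. Members with a summit near a TSS numbered 4 at a limit of 5 kb. Loci summits with the motif numbered 2 with no mismatch and 15 with at most 2 mismatches.

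Percentiles of density moved too. For Dlx1 and Dlx2 the percentile was 33.0 among genes of the same length, 60.1 with 10 kb and 49.1 with 50 kb. Dlx6 and Dlx5 reached 45.4 with 10 kb, Nkx2-1 fell to 18.4 and Lhx6 reached 15.9 with 50 kb, and Sox6 had 14.6 among genes of the same length, 20.6 with 10 kb and 16 with 50 kb. From each replicate alone, an alternative added after the values were seen, the range was 49.0 to 50.3 for Dlx1 and Dlx2, 35.5 to 49.0 for Dlx6 and Dlx5, 44.1 to 59.8 for Nkx2-1 and 18.2 to 19.1 for Sox6. The cause was not tested. Without centring, the replicate ratio moved at 3 of 16 summits, those that lead the loci of Dlx5, Nkx2-1 and Sox6. It went from 0.12 to 0.03 at Dlx5, from -0.04 to -0.13 at Nkx2-1 and from 0.12 to 0.03 at Sox6. Every ratio shifts by the same median of -0.091, which is larger in size than the SD of 0.067 in the highest decile of signal. These 3 summits lie in that decile, so they had to move whatever their replicates gave. With the comprehensive annotation the count of members with a summit near a TSS was 1, as with the basic one.

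No paired analysis was possible because each biological replicate gives 1 value per peak, its technical libraries share 1 alignment and no test was made. Depth is unknown, so a gene without a summit had none past this threshold only.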
